A study of Mus musculus with 9 samples.

Results

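The genes described here encode enzymes that make prostaglandins, thromboxane and leukotrienes. The set of 10 was chosen by gene symbol: Ptgs1, Ptgs2, Ptges, Ptges2, Ptgds, Hpgds, Tbxas1, Alox5, Alox5ap and Ltc4s. They were 10 of the 56748 genes in the table and each matched a single row, and all 10 were among the 18093 genes that passed the filter on low counts. Their messenger RNA was read out by sequencing polyadenylated RNA from 9 libraries, with 3 biological replicates each of reactive cultures, injured cortex and uninjured cortex. All came from wild-type C57BL/6J mice that were 2 to 3 months old. Injured cortex was the core of a lesion made with a surgical lancet, dissociated with papain and sorted to remove debris, dead cells and neurons positive for CD171 and negative for ACSA-2. Uninjured cortex was intact tissue taken through the same sort. Reactive cultures were lesion cores grown in DMEM/F12 with B27 and 10% fetal bovine serum, and each culture was collected whole, with no sort. By the sample labels, dissection followed injury by 1 day and the cultures then grew for 6 days. The series design text instead gave 3 days for injured cortex, and for the cultures 24 h followed by 8 days in vitro.

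Phospholipases free arachidonic acid from membranes, and a pair of enzyme families compete for it. The cyclooxygenases turn it into prostaglandin H2, from which separate terminal synthases make prostaglandin E2, prostaglandin D2 or thromboxane A2. 5-lipoxygenase, helped by its activating protein, turns it into leukotriene A4, the source of leukotriene B4 and, through leukotriene C4 synthase, of the cysteinyl leukotrienes. In the brain, microglia are rich in cyclooxygenase-1 and in the hematopoietic prostaglandin D synthase. The lipocalin-type prostaglandin D synthase is a product of oligodendrocytes, meninges and choroid plexus, and cyclooxygenase-2 is an inducible enzyme.

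Total counts were 16667883 to 24302770 per culture, 20389561 to 21135163 per injured library and 12205049 to 18577561 per uninjured library. Olfactory and vomeronasal receptor genes, 1999 in all, summed to 182 and 151 CPM (counts scaled to the total of the library) in uninjured replicates 2 and 3 against 14.4 to 44.1 CPM in each of the other 7, so results against uninjured cortex were also computed without these 2 libraries. All other CPM values below were also scaled by the trimmed mean of M values. The scaling factors were 0.716 to 0.767 in cultures, 0.938 to 1.393 in injured cortex and 1.13 to 1.349 in uninjured cortex. The 6 leukocyte and microglia markers Ptprc, Tyrobp, Fcer1g, Laptm5, Itgam and Csf1r summed to 5011 to 5609 CPM in cultures, 4090 to 9399 CPM in injured cortex and 3985 to 5129 CPM in uninjured cortex. Markers of homeostatic microglia, 10 genes, summed to 1421 to 2220 CPM in cultures, 6427 to 18808 CPM in injured cortex and 10159 to 16544 CPM in uninjured cortex. Markers of monocytes and macrophages, also 10 genes, summed to 16462 to 23301 CPM in cultures, 435 to 2735 CPM in injured cortex and 44.6 to 85.1 CPM in uninjured cortex. Most of the culture sum was Gpnmb (mean 18646 CPM). Of the 10, 3 were higher and 7 lower in cultures than in injured cortex, among the lower ones Ccr2 (1.59 against 132 CPM on average) and Ly6c2 (1.94 against 389 CPM). The 7 neuronal markers stayed low, at 18.8 to 25.2 CPM in cultures, 44.5 to 93.9 CPM in injured cortex and 13.4 to 27.0 CPM in uninjured cortex. In such bulk libraries, fewer cells of a type and less RNA per cell cannot be told apart, for any gene below. Whether reads were counted by strand is not given in the sources used here, and Ptgs1, Tbxas1, Alox5ap and Ltc4s each share 144 to 268 exonic bases with an antisense gene in GENCODE M21. The 4 antisense genes held at most 118 counts in any library.

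Ptgs2 and Ptgds were called after injury, and these and other members in the cultures. In cultures against injured cortex, 2 members were higher (Ptgs2 and Ptges) and 4 lower (Ptgs1, Ptgds, Alox5 and Ltc4s), 6 of 10, where 50.1% of all genes tested were called, 20.0% higher and 30.1% lower. In cultures against uninjured cortex, 3 were higher (Ptgs2, Ptges and Alox5ap) and the 4 lower ones were again Ptgs1, Ptgds, Alox5 and Ltc4s, 7 of 10, where 60.5% of all genes were called, 27.5% higher and 33.1% lower. In injured against uninjured cortex, Ptgs2 was higher and Ptgds lower, 2 of 10, where 11.9% of all genes were called, 8.99% higher and 2.87% lower. Groups did not overlap for 6 members in cultures against injured cortex (2 higher, 4 lower), where they did not for 59.7% of all genes (25.8% higher, 33.8% lower). They did not overlap for 8 members in cultures against uninjured cortex (4 higher, 4 lower), against 69.2% of all genes (32.1% higher, 37.1% lower), and for 2 in injured against uninjured cortex (1 higher, 1 lower), against 28.6% (16.1% higher, 12.5% lower). The share of members called was near or a little above that of all genes in each comparison, so the number of calls does not set the members apart. A call is an adjusted p under 0.05 in edgeR's quasi-likelihood test, adjusted over all 18093 genes tested. The median log2 fold change of the 10 members was -0.39 in cultures against injured cortex, -0.30 in cultures against uninjured cortex and -0.07 in injured against uninjured cortex, beside -0.19, -0.17 and 0.00 for all genes. The 3 comparisons share libraries and are not independent.

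**Figure D1:**
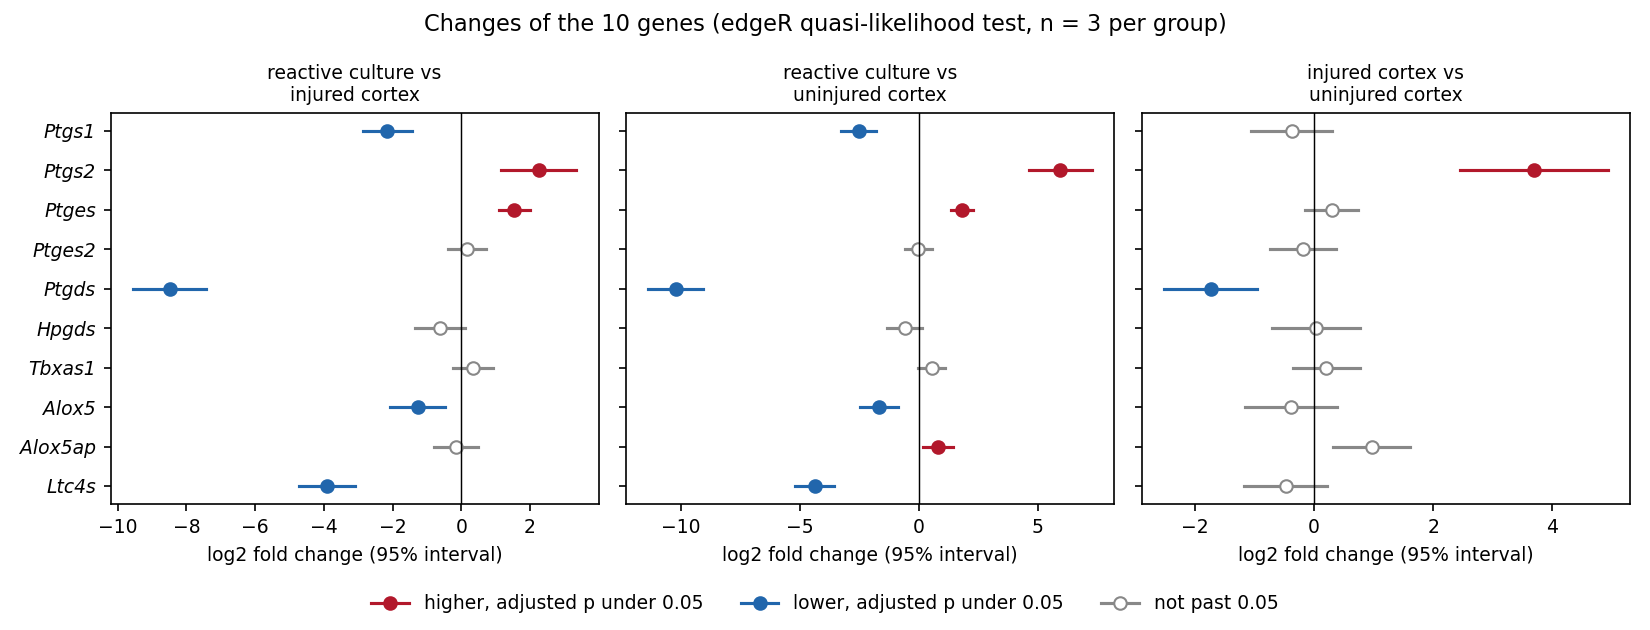
Log2 fold change of each of the 10 genes in the 3 comparisons, with the 95% interval as a line and colour for the genes with an adjusted p under 0.05 in edgeR's quasi-likelihood test (n = 3 libraries per group). Ptgds reaches -8.49 in cultures against injured cortex and -10.22 in cultures against uninjured cortex, Ptgs2 lies above 0 in all 3 panels, and the interval of Ptges2 crosses 0 in all 3.

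Levels between genes were compared as CPM per kb of exon, with exon lengths from the GENCODE M21 annotation. On that scale Ptgds headed the uninjured cortex, at 2483 CPM per kb on average, followed by Ptgs1 at 76.5, Ltc4s at 65.4 and Hpgds at 57.5 CPM per kb. The ranges of Ptgs1 (57.2 to 87.0), Ltc4s (57.8 to 74.4) and Hpgds (44.6 to 79.7 CPM per kb) overlapped, so their order is within the spread of the libraries. In the cultures the order was Alox5ap at 80.4, Hpgds at 38.5 and Ptgs2 at 25.8 CPM per kb, and the ranges of these 3 did not overlap. Ptgs2 was the lowest of the 10 per kb in uninjured cortex, at 0.418 CPM per kb. Ptgds, at 2.07, and Alox5, at 1.43 CPM per kb, were the lowest in the cultures, with overlapping ranges.

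**Figure D2:**
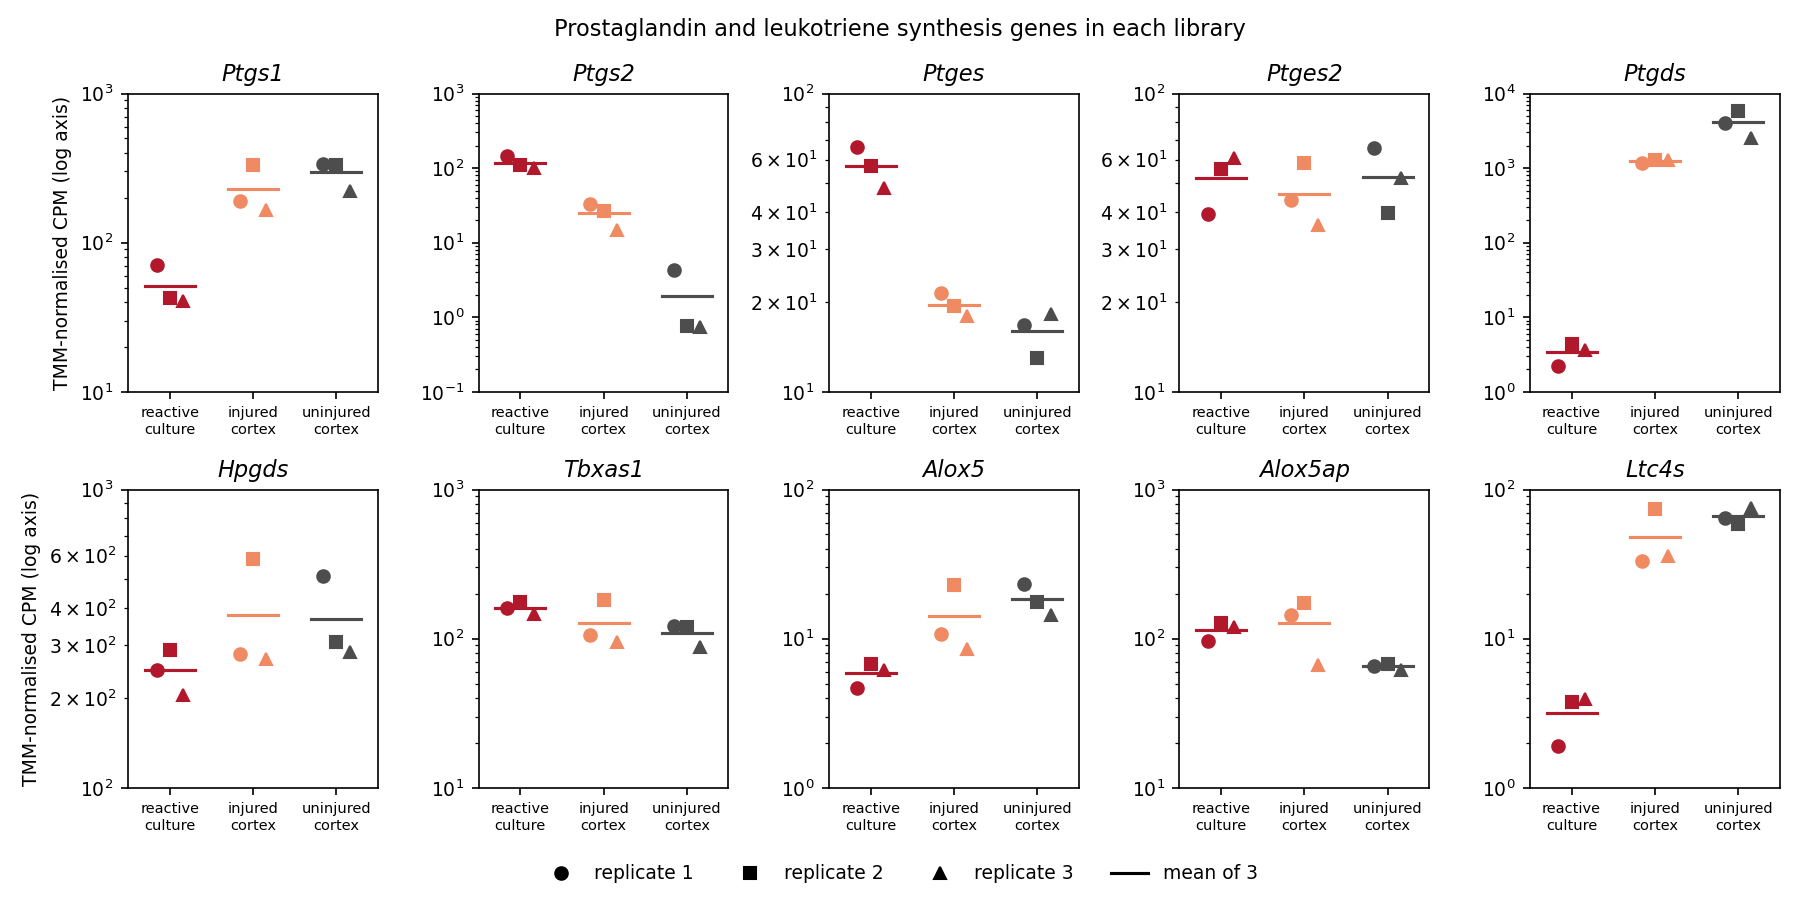
Level of each of the 10 genes in each library, in CPM scaled by the trimmed mean of M values, on a log axis that differs between panels; each point is a library, its shape the replicate number, and the line is the mean of 3. Ptgds, Ltc4s and Ptgs1 are lowest in the 3 cultures, Ptgs2 and Ptges are highest there, and Ptges2 and Hpgds overlap between all groups.

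Cyclooxygenase-2, encoded by Ptgs2, was higher after injury and higher again in the cultures, while the constitutive cyclooxygenase-1 gene Ptgs1 was lower in the cultures. The promoter of Ptgs2 is shown because Ptgs2 and Ptgds were the 2 members called in all 3 comparisons. Capitals mark GAGGAA, a motif of the kind bound by the myeloid factor PU.1, and the overlapping CGTCA, a cyclic AMP response half-site, and CACGTG, an E-box. The sequence is the plus strand of chr1:150099781-150100060 in GRCm38.p6 (RefSeq), from 250 bases before to 30 bases after the start.
Ptgs2: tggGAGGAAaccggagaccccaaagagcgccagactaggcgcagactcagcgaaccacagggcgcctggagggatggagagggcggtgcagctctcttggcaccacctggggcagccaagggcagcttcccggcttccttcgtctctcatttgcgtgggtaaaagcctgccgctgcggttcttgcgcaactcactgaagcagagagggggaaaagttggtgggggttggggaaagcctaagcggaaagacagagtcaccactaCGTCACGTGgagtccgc

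Ptgs2 was at 144, 110 and 101 CPM in the cultures, at 33.2, 26.6 and 14.6 CPM in injured cortex and at 4.25, 0.765 and 0.732 CPM in uninjured cortex. No group overlapped another, and uninjured replicate 1 stood above the other 2 uninjured libraries. Its log2 fold change was 2.26 ± 0.50 (SE) in cultures against injured cortex (4.77-fold, 95% interval 2.24 to 10.2, adjusted p = 0.00299). Against uninjured cortex it was 5.95 ± 0.61 in cultures (61.9-fold, 95% interval 24.5 to 156, adjusted p = 6.49e-06) and 3.70 ± 0.57 in injured cortex (13-fold, 95% interval 5.51 to 30.5, adjusted p = 0.00127). The uninjured values rest on 77, 17 and 12 counts. Without uninjured replicates 2 and 3 the log2 fold change of Ptgs2 was 4.79 in cultures and 2.53 in injured cortex (adjusted p = 0.0304), and without uninjured replicate 1 it was 7.30 in cultures and 5.05 in injured cortex.

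Ptgs2 is an immediate early gene, and 10 other genes of that class (Fos, Fosb, Jun, Junb, Egr1, Egr2, Nr4a1, Ier2, Dusp1 and Atf3, a list chosen after values were seen) were summed beside it. Their sum was 1322, 1539 and 1388 CPM in cultures, 10907, 14619 and 7029 CPM in injured cortex and 13383, 8157 and 3187 CPM in uninjured cortex. Uninjured replicate 1 thus had the highest level of both Ptgs2 and these genes within its group, whereas the cultures had the highest Ptgs2 and the lowest sum. The cells of both cortex groups were dissociated and sorted before RNA extraction and the cultures were not, and the part of that handling in the Ptgs2 result was not tested.

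Ptgs1 was at 70.9, 42.7 and 40.9 CPM in the cultures, at 189, 334 and 166 CPM in injured cortex and at 338, 332 and 222 CPM in uninjured cortex. Every culture was below every cortex library, and the cortex groups overlapped. Ptgs1 was 4.46-fold lower in cultures than in injured cortex (-2.16 ± 0.33 on the log2 scale, adjusted p = 0.00023) and 5.77-fold lower than in uninjured cortex (-2.53 ± 0.33, adjusted p = 4.93e-05). In injured against uninjured cortex its log2 fold change was -0.37 ± 0.32 with a 95% interval from -1.06 to 0.31 (adjusted p = 0.495). The markers of homeostatic microglia moved with Ptgs1: all 10 were lower in cultures than in injured cortex, and their sums did not overlap, as given above. Their part in the Ptgs1 result was not tested.

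The opposite directions of the pair changed the make-up of the cyclooxygenase transcripts. Ptgs2 was 67.0%, 72.0% and 71.1% of the summed Ptgs1 and Ptgs2 counts in the cultures, 14.9%, 7.38% and 8.09% in injured cortex and 1.24%, 0.23% and 0.328% in uninjured cortex. The share averaged 70.0% ± 2.68 in cultures, 10.1% ± 4.15 in injured cortex and 0.60% ± 0.558 in uninjured cortex (SD, n = 3 each). No library of a group came near another group. With 3 libraries against 3, a two-sided exact permutation test cannot go below p = 0.10, which each of the 3 comparisons reached. Divided by exon length, the shares were 66.5%, 8.73% and 0.51% in cultures, injured and uninjured cortex.

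**Figure D3:**
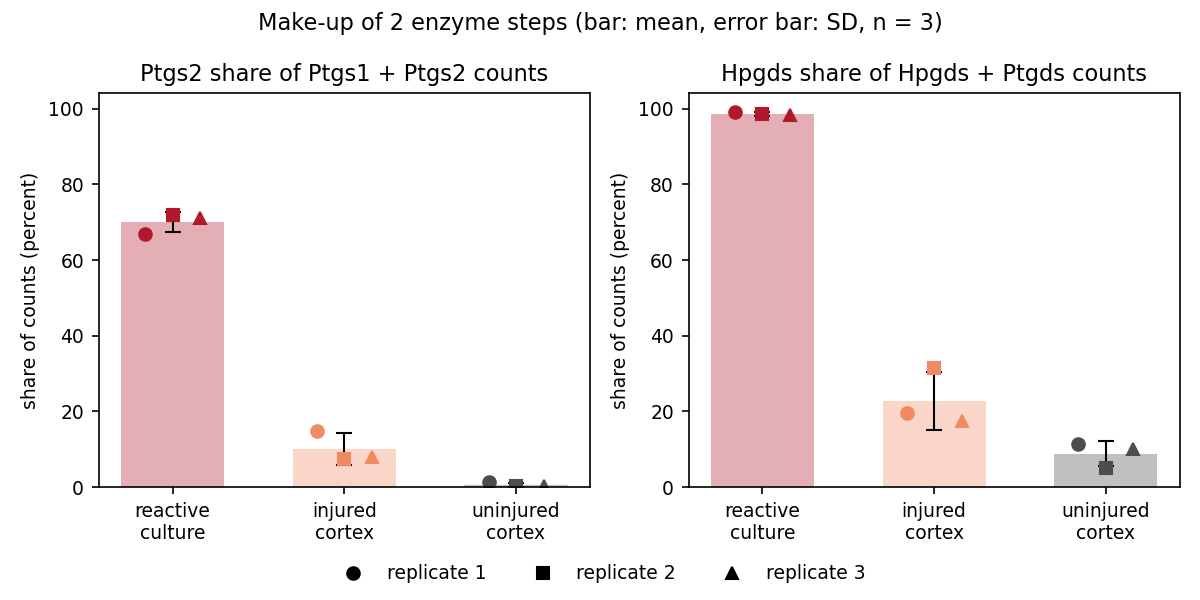
Share of Ptgs2 in the summed Ptgs1 and Ptgs2 counts (left) and of Hpgds in the summed Hpgds and Ptgds counts (right), in percent; points are libraries, bars the mean and error bars the SD of 3 libraries. The cultures sit between 67.0% and 72.0% on the left and between 98.2% and 99.1% on the right, above every cortex library.

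Of the prostaglandin E synthases, the inducible microsomal enzyme gene Ptges was higher in the cultures, and Ptges2, which encodes a constitutively expressed enzyme, passed the test in no comparison. The Ptges promoter is shown because its RNA rose in the cultures, as did that of Ptgs2, whose product supplies the substrate. The capitals mark TTCCTC, which is GAGGAA on the opposite strand, and the sequence is the minus strand of chr2:30903268-30903547 in GRCm38.p6 (RefSeq).
Ptges: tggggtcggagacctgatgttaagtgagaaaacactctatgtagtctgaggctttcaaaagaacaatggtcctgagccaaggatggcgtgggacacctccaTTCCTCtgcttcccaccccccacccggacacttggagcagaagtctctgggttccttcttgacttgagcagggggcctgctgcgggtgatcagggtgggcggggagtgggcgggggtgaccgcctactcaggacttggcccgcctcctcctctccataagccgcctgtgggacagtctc

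Ptges was at 66.0, 57.1 and 48.2 CPM in the cultures, at 21.4, 19.4 and 18.0 CPM in injured cortex and at 16.7, 13.1 and 18.2 CPM in uninjured cortex. All cultures were above all cortex libraries, and injured replicate 3 fell within the uninjured range. Ptges was 2.91-fold higher in cultures than in injured cortex (1.54 ± 0.21 on the log2 scale, adjusted p = 9.07e-05) and 3.57-fold higher than in uninjured cortex (1.84 ± 0.21, adjusted p = 1.62e-05). In injured against uninjured cortex the log2 fold change was 0.30 ± 0.21, with a 95% interval from -0.15 to 0.74 (adjusted p = 0.40). Ptges2 was at 39.5, 55.8 and 60.7 CPM in the cultures, at 43.8, 58.4 and 36.1 CPM in injured cortex and at 65.5, 39.7 and 52.2 CPM in uninjured cortex, with all groups overlapping. Its 95% intervals ran from -0.38 to 0.73 in cultures against injured cortex, from -0.56 to 0.54 in cultures against uninjured cortex and from -0.74 to 0.37 in injured against uninjured cortex, on the log2 scale. As a sum, the 8 fibroblast markers were also highest in the cultures, at 609 to 951 CPM. They were at 64.3 to 72.8 CPM in injured cortex and 49.6 to 72.4 CPM in uninjured cortex. Of them 6 were higher in each culture comparison, and 1 was lower than in uninjured cortex. The 8 mural markers summed to 3226 to 3764 CPM in cultures, 516 to 549 CPM in injured and 881 to 1657 CPM in uninjured cortex. Most of that culture sum was Acta2 (mean 3425 CPM), and 5 of the 8 were lower and 2 higher in cultures than in injured cortex. Monocyte and macrophage sums, given above, were highest in cultures too. Most of that culture sum was Gpnmb, and 7 of the 10 markers were lower and 3 higher in cultures than in injured cortex. The part of these cells in the Ptges result was not tested.

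The 2 prostaglandin D synthases parted. Ptgds, the lipocalin-type enzyme, had the largest fold change of the 10 genes in both culture comparisons and was also lower after injury, while Hpgds, the hematopoietic enzyme, was called in no comparison when all 3 groups were fitted together. The Ptgds promoter is shown because of that fall. Capitals mark TGACTCA, a match to the AP-1 motif TGANTCA, and the sequence is the minus strand of chr2:25469720-25469999 in GRCm38.p6 (RefSeq).
Ptgds: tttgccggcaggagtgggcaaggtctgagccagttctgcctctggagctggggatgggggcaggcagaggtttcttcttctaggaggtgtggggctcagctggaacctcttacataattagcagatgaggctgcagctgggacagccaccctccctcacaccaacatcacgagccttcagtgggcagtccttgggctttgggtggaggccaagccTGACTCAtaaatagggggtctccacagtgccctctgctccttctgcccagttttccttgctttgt

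Ptgds was at 2.21, 4.37 and 3.68 CPM in the cultures, at 1152, 1267 and 1283 CPM in injured cortex and at 3976, 5786 and 2522 CPM in uninjured cortex. The 3 groups were far apart, with the injured libraries within a narrow range and the uninjured ones spread over a 2.29-fold range. The culture values rest on 36, 76 and 47 counts. Ptgds was 360-fold lower in cultures than in injured cortex (-8.49 ± 0.49 on the log2 scale, adjusted p = 1.38e-07), and its log2 fold change in cultures against uninjured cortex was -10.22 ± 0.53 (adjusted p = 3.47e-08). It was 3.32-fold lower in injured than in uninjured cortex (log2 fold change -1.73 ± 0.36, adjusted p = 0.00859). The injury call was lost without uninjured replicates 2 and 3, at a log2 fold change of -1.70 and an adjusted p of 0.0535.

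Oligodendrocyte markers moved with Ptgds. The 10 genes summed to 420, 713 and 791 CPM in cultures, 18767, 17030 and 13495 CPM in injured cortex and 33680, 36341 and 20513 CPM in uninjured cortex, with 2 of 10 lower in injured than in uninjured cortex and all 10 lower in cultures in both comparisons. The 5 choroid plexus markers, led by Ttr, were at 2.70 to 39.1 CPM in cultures, 0.472 to 19.6 CPM in injured cortex and 2.60 to 4.39 CPM in uninjured cortex, and so were not lowest in the cultures. The 8 astrocyte markers summed to 85.3 to 148 CPM in cultures. In injured cortex they were at 2131 to 3707 CPM, and in uninjured cortex at 3827 to 6814 CPM. Of them 1 was lower after injury, and all 8 were lower in both culture comparisons. Of 8 mural markers, 6 were lower after injury. In cultures 5 were lower and 2 higher than in injured cortex, and 6 lower and 1 higher than in uninjured cortex. The part of any of these cell types in the Ptgds result was not tested. Of the 8 fibroblast markers, which include genes of the meninges, 6 were higher in each culture comparison. Slc6a13, another gene of that list, was lower in cultures than in uninjured cortex, as Ptgds was, at 2.84 against 9.19 CPM on average (adjusted p = 0.00532). Their part was not tested either.

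Hpgds was at 249, 289 and 204 CPM in the cultures, at 280, 586 and 270 CPM in injured cortex and at 512, 309 and 286 CPM in uninjured cortex. Every pair of groups overlapped, and 1 library stood high in each cortex group. The log2 fold change was -0.62 (95% interval -1.35 to 0.12) in cultures against injured cortex, -0.58 (-1.32 to 0.16) in cultures against uninjured cortex and 0.04 (-0.70 to 0.77) in injured against uninjured cortex. Fitted with these 2 groups alone, cultures were lower than uninjured cortex, at -0.67 (adjusted p = 0.0289). With Ptgds this low, Hpgds made up 99.1%, 98.5% and 98.2% of the summed counts of the 2 synthases in cultures, 19.5%, 31.6% and 17.4% in injured cortex and 11.4%, 5.07% and 10.2% in uninjured cortex. The groups did not overlap in any comparison, at the smallest exact permutation p of 0.10 that 3 against 3 allows. Divided by exon length, Hpgds was 94.8%, 7.20% and 2.46% in cultures, injured and uninjured cortex.

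Thromboxane A synthase, encoded by Tbxas1 and best known from platelets and macrophages, was at 161, 176 and 147 CPM in the cultures, at 106, 182 and 94.9 CPM in injured cortex and at 122, 120 and 87.6 CPM in uninjured cortex. The cultures lay above the uninjured libraries, and injured replicate 2 was above all others. The log2 fold change of 0.55 ± 0.26 in cultures against uninjured cortex did not pass the test (adjusted p = 0.0837), nor did 0.34 ± 0.26 in cultures against injured cortex (adjusted p = 0.292) or 0.21 ± 0.26 in injured against uninjured cortex (adjusted p = 0.655). With injured replicate 2 left out, cultures passed against uninjured cortex (adjusted p = 0.0338) and, at 0.69, against injured cortex (adjusted p = 0.0314). With injured replicate 3 left out they passed against uninjured cortex (adjusted p = 0.0475), and so they did with these 2 groups alone, at 0.47 (adjusted p = 0.0432). Platelet markers, 7 genes, summed to 1.67 to 2.50 CPM in cultures, 7.22 to 12.8 CPM in injured cortex and 11.4 to 25.2 CPM in uninjured cortex. Most of both cortex sums was Gp9, at 6.99 CPM on average in injured and 15.6 CPM in uninjured cortex. Of the 4 platelet markers tested, 0 were called after injury. In cultures 1 was lower than in injured cortex and 2 were lower than in uninjured cortex. Gp1bb and Gp6 had no count in injured cortex, and Gp1bb had none in uninjured cortex.

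Of the leukotriene genes, Ltc4s, the leukotriene C4 synthase, and Alox5, the 5-lipoxygenase, were lower in the cultures, whereas Alox5ap, the 5-lipoxygenase activating protein, was higher there than in uninjured cortex. The Ltc4s promoter is shown as that of the second largest decrease among the members in the cultures. Capitals mark TTCCTC, the opposite strand of GAGGAA, and the sequence is the minus strand of chr11:50238503-50238782 in GRCm38.p6 (RefSeq).
Ltc4s: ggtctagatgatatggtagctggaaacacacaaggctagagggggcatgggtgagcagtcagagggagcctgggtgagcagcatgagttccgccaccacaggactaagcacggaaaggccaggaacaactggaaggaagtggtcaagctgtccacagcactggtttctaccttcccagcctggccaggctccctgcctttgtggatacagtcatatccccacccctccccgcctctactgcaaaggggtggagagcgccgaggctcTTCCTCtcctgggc

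Ltc4s was at 1.90, 3.74 and 3.91 CPM in the cultures, at 33.4, 73.8 and 36.0 CPM in injured cortex and at 64.9, 58.6 and 75.4 CPM in uninjured cortex. The cultures were far below both cortex groups, which overlapped. In cultures it was 15-fold lower than in injured cortex (a log2 fold change of -3.91 ± 0.37, adjusted p = 5.68e-06) and 20.9-fold lower than in uninjured cortex (-4.38 ± 0.38, adjusted p = 1.52e-06). In injured against uninjured cortex its log2 fold change was -0.47 ± 0.32, with a 95% interval from -1.17 to 0.22 (adjusted p = 0.379). Mast cell and basophil markers, 8 genes, summed to 4.85 to 7.25 CPM in cultures, 7.83 to 13 CPM in injured cortex and 2.87 to 5.44 CPM in uninjured cortex. Most of the uninjured sum was Kit (mean 3.90 CPM), and most of the culture sum was Kit and Mcpt8 (means 2.45 and 2.91 CPM). Only 3 of the 8 genes passed the filter on low counts. Fcer1a had no count in cultures, and Mcpt4 and Tpsb2 had none in uninjured cortex. The part of these cells in the Ltc4s result was not tested.

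Alox5 was at 4.67, 6.73 and 6.18 CPM in the cultures, at 10.8, 23.0 and 8.58 CPM in injured cortex and at 23.4, 17.5 and 14.5 CPM in uninjured cortex. Each culture was below each cortex library, and the cortex groups overlapped. It was 3.15-fold lower in cultures than in uninjured cortex (log2 fold change -1.66 ± 0.37, adjusted p = 0.00224) and 2.41-fold lower than in injured cortex (-1.27 ± 0.37, adjusted p = 0.0131). The second of these calls was lost without culture replicate 1, at -1.12 (adjusted p = 0.059), and without injured replicate 2, at -0.72 (adjusted p = 0.0744). In injured against uninjured cortex the log2 fold change was -0.39 ± 0.36 (adjusted p = 0.531).

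Alox5ap was at 95.7, 127 and 120 CPM in the cultures, at 143, 173 and 66.3 CPM in injured cortex and at 65.3, 68.1 and 61.9 CPM in uninjured cortex. The cultures were above the uninjured libraries, and injured replicate 3 lay within the uninjured range while the other 2 injured libraries were the highest of all 9. Alox5ap was 1.75-fold higher in cultures than in uninjured cortex (log2 fold change 0.81 ± 0.30, adjusted p = 0.0316), a call that 5 of the 9 single-library omissions ended (culture replicate 2 or 3, or any uninjured replicate, with adjusted p of 0.0607 to 0.117). Upper-quartile scaling also ended that call, at 0.62 (adjusted p = 0.0778). In injured against uninjured cortex the value of 0.97 ± 0.30 missed the threshold (adjusted p = 0.0537), and without injured replicate 3 it was 1.26 (adjusted p = 0.000536). DESeq2's Wald test (adjusted p = 0.0395) and a fit without the low-count filter (adjusted p = 0.00274) called it. In cultures against injured cortex it was -0.16, with a 95% interval from -0.80 to 0.48 (adjusted p = 0.674). The 10 neutrophil markers, from cells rich in Alox5 and Alox5ap, summed to 187 to 216 CPM in cultures, 498 to 680 CPM in injured cortex and 210 to 296 CPM in uninjured cortex. Csf3r was the largest part of the uninjured sum, at 132 CPM on average, beside 148 CPM in injured cortex. Most of the culture sum was Mmp8 (mean 165 CPM), and 9 of the 10 markers were lower in cultures than in injured cortex and 6 lower than in uninjured cortex. S100a9 averaged 0.0958 CPM in cultures, 165 CPM in injured cortex and 37.8 CPM in uninjured cortex. The part of neutrophils in these results was not tested.

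Because many of the members are known from microglia or other leukocytes, levels were also set against the summed leukocyte and microglia markers, as CPM per 1000 CPM of that list. Ptgs1 was then at 12.6, 7.76 and 8.17 in cultures, 24.2, 35.6 and 40.5 in injured cortex and 66.0, 64.7 and 55.7 in uninjured cortex. Ltc4s was at 0.339, 0.68 and 0.781 in cultures, 4.27, 7.85 and 8.80 in injured cortex and 12.7, 11.4 and 18.9 in uninjured cortex. Alox5 was at 0.832, 1.22 and 1.23 in cultures, 1.38, 2.45 and 2.10 in injured cortex and 4.58, 3.42 and 3.63 in uninjured cortex. On this scale the 3 groups of each of these genes did not overlap, and the injured libraries lay between cultures and uninjured cortex, where the CPM of the 2 cortex groups had overlapped. The list itself summed to 7818, 9399 and 4090 CPM in injured cortex against 3985 to 5129 CPM in uninjured cortex. A larger sum lowers the ratio of a gene that does not rise with it. Overlap was not counted over all genes on this scale, so it does not set these genes apart. Tbxas1 was at 28.7, 32.1 and 29.3 in cultures, 13.5, 19.4 and 23.2 in injured cortex and 23.8, 23.4 and 22.0 in uninjured cortex, and the cultures were above every cortex library. Alox5ap averaged 21.4 in cultures, 17.6 in injured cortex and 13.9 in uninjured cortex, and the injured libraries were all above the uninjured ones, which was not so in CPM. Hpgds was at 44.4, 52.6 and 40.6 in cultures, 35.8, 62.3 and 66.0 in injured cortex and 100, 60.3 and 71.9 in uninjured cortex. Its cultures were below every uninjured library, which was not so in CPM, and injured cortex overlapped both other groups. These ratios were not tested, and the list's own genes did not all move alike: of 6, Ptprc was higher in injured than in uninjured cortex. Csf1r was 3.79-fold lower in cultures than in injured cortex (adjusted p = 0.00042) and 3.59-fold lower than in uninjured cortex (adjusted p = 0.000382). Ptprc was lower in cultures than in injured cortex and higher than in uninjured cortex, and Tyrobp was 2.49-fold higher in cultures than in uninjured cortex (adjusted p = 0.00527).

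**Figure D4:**
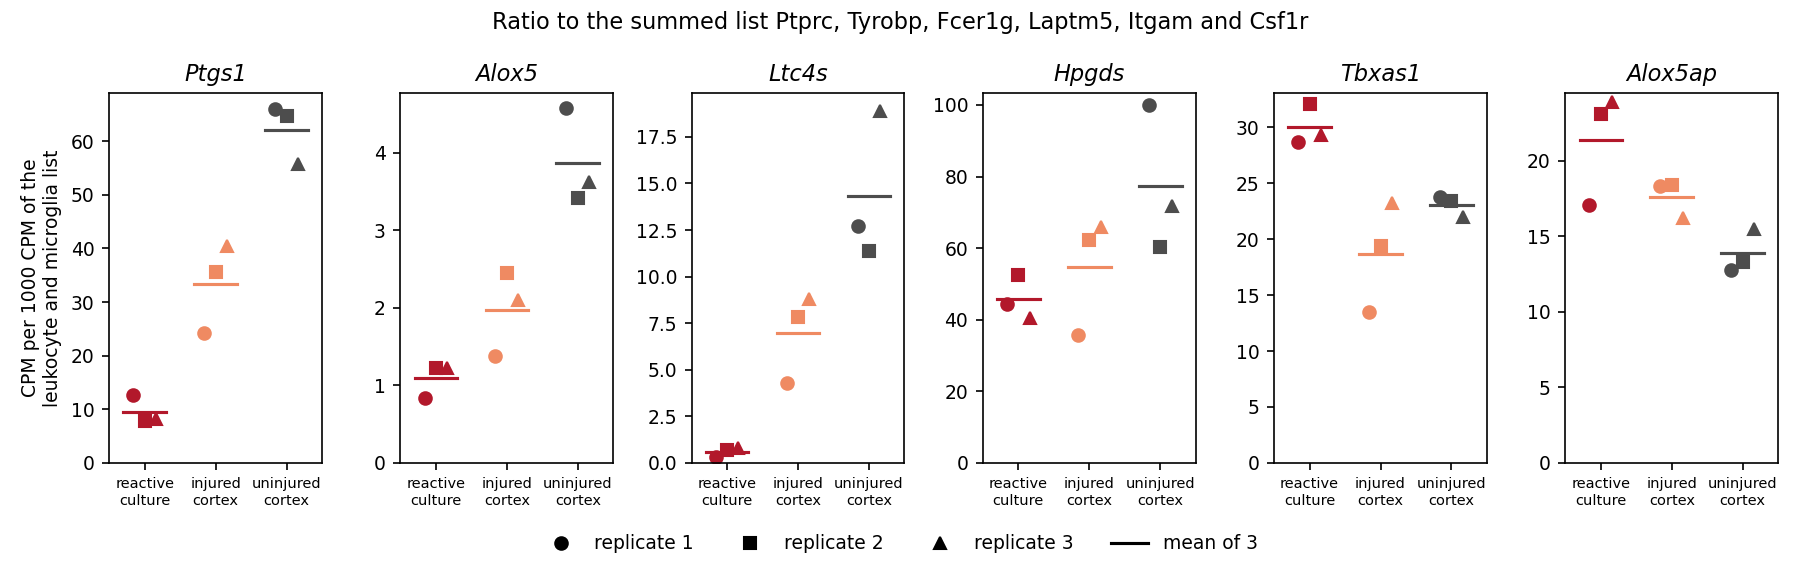
Level of 6 of the genes relative to the summed level of Ptprc, Tyrobp, Fcer1g, Laptm5, Itgam and Csf1r, as CPM per 1000 CPM of that list (linear axes from 0); each point is a library and the line is the mean of 3. Ptgs1, Alox5 and Ltc4s are lowest in cultures and highest in uninjured cortex with injured cortex between, and Alox5ap runs the other way on average.

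In GRCm38, Ptgs1, Ptges, Ptges2 and Ptgds lie on chromosome 2, Hpgds, Tbxas1 and Alox5 on chromosome 6, Ptgs2 on chromosome 1, Alox5ap on chromosome 5 and Ltc4s on chromosome 11. RefSeq promoters were matched for 9 of 10 members, all but Alox5ap, and 6 motifs were searched on both strands from 250 bases before to 50 after the start. GAGGAA was in 7 of the 9 (Ptgs1, Ptgs2, Ptges, Hpgds, Tbxas1, Alox5 and Ltc4s) and in 28.3% of all 32851 promoters searched. TGANTCA was in the promoters of Ptgds and Tbxas1 and in 7.81% of all. CGTCA was in that of Ptgs2 and in 20.8% of all, and it overlapped the CACGTG there. They begin at bases 14 and 17 as counted from the RefSeq start used here, and another start would shift these positions. CACGTG was also in the Ptges2 promoter and in 7.15% of all. An NF-kB-like motif was in the Alox5 promoter and in 20.7% of all, and the TATA box letters TATAAA were in the Tbxas1 promoter and in 13.6% of all. A match describes letters and no binding, and no match says nothing of the factor.

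The genes around the members were counted from 4 pathway lists. Of the 46 tested, 15 were called higher and 12 lower in cultures than in injured cortex, where 20.0% and 30.1% of all genes were. In cultures against uninjured cortex 18 were higher and 12 lower, where 27.5% and 33.1% of all genes were. In injured against uninjured cortex 9 were higher and 3 lower, where 8.99% and 2.87% of all genes were. The counts of each list are to be read beside these shares. Of 10 arachidonate release genes tested (16 listed), 3 were higher and 3 lower in cultures than in injured cortex, 2 and 3 in cultures against uninjured cortex, and 0 and 1 in injured against uninjured cortex. Pla2g4a, the cytosolic phospholipase that frees arachidonate for both enzyme families, was at 143, 148 and 123 CPM in cultures, 48.1, 68.7 and 24.0 CPM in injured cortex and 45.0, 34.0 and 27.6 CPM in uninjured cortex. It was higher in cultures than in injured cortex (1.56 ± 0.33 on the log2 scale, adjusted p = 0.00204) and than in uninjured cortex (1.96 ± 0.33, adjusted p = 0.000331). The endocannabinoid hydrolases Faah and Abhd6, which can supply arachidonate, were lower in cultures than in injured cortex, at -3.26 (adjusted p = 1.23e-05) and -1.50 (adjusted p = 0.000398), and than in uninjured cortex, at -3.21 and -1.94. The secreted phospholipase gene Pla2g2e had 77 counts over the cultures, 2 over injured and 1 over uninjured cortex, ratios of 57.7 (95% counting interval 15.5 to 485) and 94.0 (16.4 to 3762). These intervals cover the sampling of pooled reads and leave out the variation between libraries. Pla2g2d, another secreted phospholipase, was the call after injury, at -2.56 (adjusted p = 0.00814), and it was lost without uninjured replicate 2 (adjusted p = 0.0516).

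Of 17 other eicosanoid synthases tested (19 listed), 5 were higher and 5 lower in cultures than in injured cortex, 7 and 4 in cultures against uninjured cortex, and 2 and 1 in injured against uninjured cortex. Mgst2, a microsomal glutathione transferase that can also make leukotriene C4, was at 17.5, 19.1 and 22.9 CPM in cultures, 2.36, 1.20 and 1.87 CPM in injured cortex and 0.828, 0.72 and 0.549 CPM in uninjured cortex. It rose in all 3 comparisons, by 3.44 ± 0.33 on the log2 scale in cultures against injured cortex (adjusted p = 5.88e-06), 4.81 ± 0.36 in cultures against uninjured cortex (adjusted p = 5.19e-07) and 1.36 ± 0.35 after injury (adjusted p = 0.0234). Its groups did not overlap, and its direction in the cultures was opposite to that of Ltc4s. The relative Mgst3 was also higher in cultures, at 2.12 against injured cortex (adjusted p = 1.49e-05) and 1.93 against uninjured cortex (adjusted p = 1.85e-05). The gamma-glutamyl transferase genes Ggt1 and Ggt5, whose products convert leukotriene C4 to leukotriene D4, were lower in cultures than in injured cortex, at -3.04 (adjusted p = 3.47e-05) and -2.47 (adjusted p = 1.49e-05). After injury, Akr1b3 was at 0.99 (adjusted p = 0.0252) and Ggt5 at -0.81 (adjusted p = 0.0478), and the calls of Mgst2, Akr1b3 and Ggt5 after injury were each lost in at least 3 of the 9 single-library omissions and with the 2 groups alone. Of the genes that moved against most of the called ones, Ephx2, the soluble epoxide hydrolase, averaged 14.7 CPM in cultures and 39.7 CPM in uninjured cortex, at -1.43 ± 0.24 (adjusted p = 0.000274). Alox12, a 12-lipoxygenase, was low throughout, at 0.525 CPM in cultures and 1.73 CPM in uninjured cortex on average, and was at -1.69 ± 0.53 (adjusted p = 0.0158), a call lost without culture replicate 3 (adjusted p = 0.0603) or uninjured replicate 1 (adjusted p = 0.0837). Lta4h, the leukotriene A4 hydrolase that makes leukotriene B4, was named outside the rule after its values were seen and passed no test, with log2 fold changes of 0.17 in cultures against injured cortex, 0.30 in cultures against uninjured cortex and 0.13 after injury.

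Of 9 inactivation and transport genes tested (10 listed), 5 were higher and 1 lower in cultures than in injured cortex, 6 and 2 in cultures against uninjured cortex, and 2 and 0 in injured against uninjured cortex. Ptgr1, which reduces prostaglandins and inactivates leukotriene B4, was at 110, 129 and 127 CPM in cultures, 34.3, 42.7 and 19.1 CPM in injured cortex and 8.89, 8.14 and 6.28 CPM in uninjured cortex. Its log2 fold change was 1.93 ± 0.27 in cultures against injured cortex (adjusted p = 0.000134), 3.97 ± 0.30 in cultures against uninjured cortex (adjusted p = 5.77e-07) and 2.04 ± 0.28 after injury (adjusted p = 0.000674, and 0.0663 without uninjured replicates 2 and 3). Cyp4f18, which degrades leukotriene B4 in mouse neutrophils, was at 17.4, 27.1 and 22.4 CPM in cultures, 165, 180 and 37.6 CPM in injured cortex and 3.31, 2.11 and 4.33 CPM in uninjured cortex. It was thus highest after injury, at 5.30 ± 0.55 against uninjured cortex (adjusted p = 0.000102), and lower in cultures than in injured cortex, at -2.51 ± 0.48 (adjusted p = 0.00103). Abcc1, an exporter of leukotriene C4, was higher in cultures, at 1.99 against injured cortex (adjusted p = 0.000636) and 1.78 against uninjured cortex (adjusted p = 0.000922). Akr1c18 had 316 counts over the cultures, 4 over injured cortex and 0 over uninjured cortex, at least 129-fold higher in cultures than in uninjured cortex when the 0 is replaced by 3 counts for the whole group. Cyp4f13 and Hpgd, the prostaglandin-degrading dehydrogenase, went the other way in cultures against uninjured cortex, at -1.49 (adjusted p = 0.00107) and -0.80 (adjusted p = 0.0274), the Hpgd call being lost without culture replicate 3 or uninjured replicate 1 or 2.

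Of 10 eicosanoid receptors tested (15 listed), 2 were higher and 3 lower in cultures than in injured cortex, 3 and 3 in cultures against uninjured cortex, and 5 and 1 in injured against uninjured cortex. The receptors for the product of Ptges divided. Ptger2, a prostaglandin E2 receptor that raises cyclic AMP, was at 12.8, 12.2 and 14.8 CPM in cultures, 2.12, 1.88 and 0.647 CPM in injured cortex and 0.00, 0.09 and 0.183 CPM in uninjured cortex. It was higher in cultures than in injured cortex (3.11 ± 0.50 on the log2 scale, adjusted p = 0.000314) and than in uninjured cortex (adjusted p = 3.38e-06), and higher in injured than in uninjured cortex (adjusted p = 0.00261), where it had 0, 2 and 3 counts. Ptger4, the other prostaglandin E2 receptor that raises cyclic AMP, was 3.12 ± 0.54 higher in cultures (adjusted p = 0.000389) and 3.51 ± 0.55 higher in injured cortex (adjusted p = 0.00143, and 0.0873 without uninjured replicates 2 and 3), each against uninjured cortex on the log2 scale. Ptger3, which lowers cyclic AMP, was lower against uninjured cortex in cultures, at -1.96 (adjusted p = 0.00674), and in injured cortex, at -2.40 (adjusted p = 0.0116), and both calls were lost without uninjured replicates 2 and 3.

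Ptgir, the prostacyclin receptor, was higher in cultures than in injured cortex, at 3.78 ± 0.53 (adjusted p = 0.00011), and the prostacyclin synthase gene Ptgis, named after its values were seen, was higher there too, at 4.52 ± 0.59 (adjusted p = 6.61e-05). Ltb4r1, the high-affinity leukotriene B4 receptor, was at 0.123, 0.402 and 0.235 CPM in cultures, 16.6, 10.9 and 4.59 CPM in injured cortex and 0.442, 0.27 and 0.793 CPM in uninjured cortex. It stood out in injured cortex, at 4.43 ± 0.59 against uninjured cortex (adjusted p = 0.000536), and the cultures were at -5.35 ± 0.64 against injured cortex (adjusted p = 3.71e-05). The neutrophil marker sums given above were also highest in injured cortex, with 5 of 10 markers called higher than in uninjured cortex. All 10 monocyte and macrophage markers were called higher in injured than in uninjured cortex. Of these, 7 were lower and 3 higher in cultures than in injured cortex. The part of either cell type in the Ltb4r1 result was not tested. Gpr17, a receptor of oligodendrocyte precursors that has been linked to cysteinyl leukotrienes, was at -8.45 ± 1.32 in cultures against injured cortex (adjusted p = 0.000265), on 7 counts over the cultures. Ptgdr and Ptgdr2, the prostaglandin D2 receptors, were below the filter and averaged 0.00 CPM in cultures and at most 0.213 CPM in either cortex group.

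**Figure D5:**
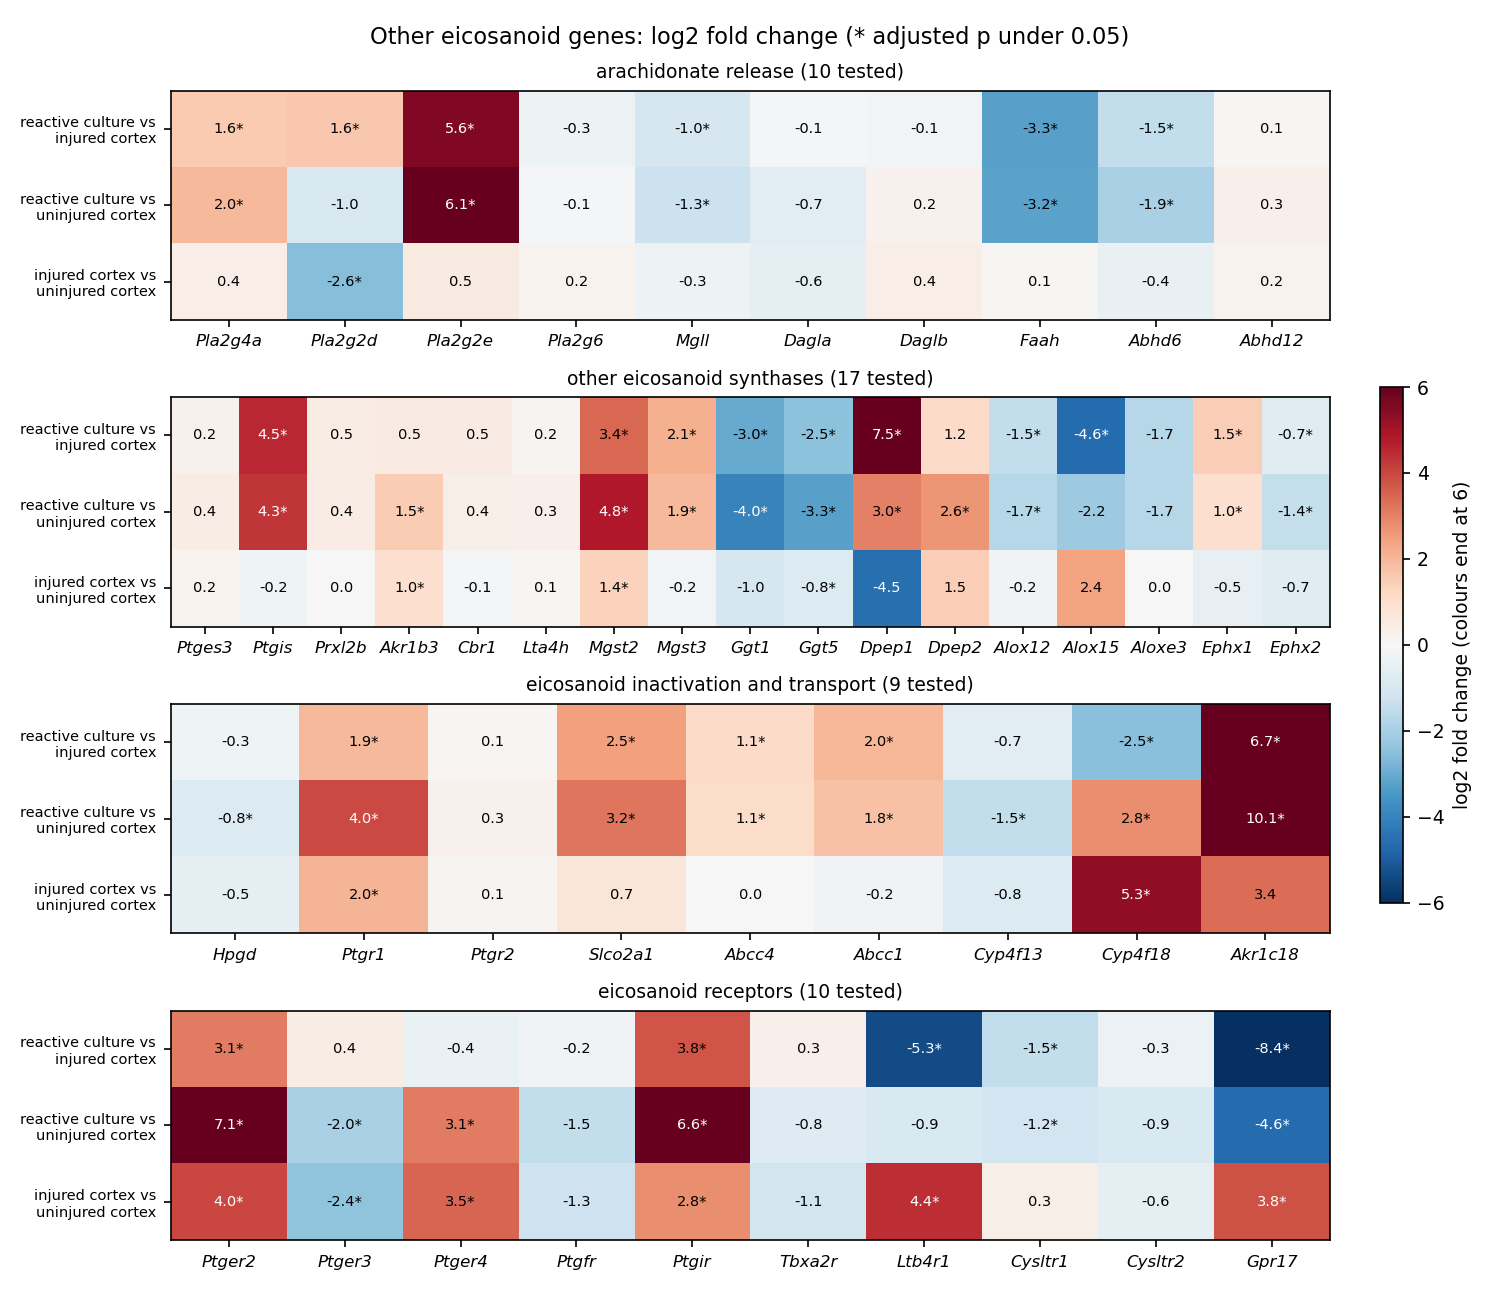
Log2 fold change of the 46 other eicosanoid genes tested, in 4 lists (panels) and 3 comparisons (rows), with a star for an adjusted p under 0.05 in edgeR's quasi-likelihood test; colours end at 6, and the fitted values of genes at or near 0 counts in a group (Akr1c18, Pla2g2e, Dpep1) depend on the prior count. Mgst2 and Ptgr1 are higher in all 3 rows, and Ltb4r1 is at 4.43 in injured against uninjured cortex and at -5.35 in cultures against injured cortex.

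Genes of most similar pattern were found over the 9 libraries among the 9102 tested genes that averaged 10 CPM or more, by the root mean square difference of centred log2 CPM. Ptgs1 was nearest to Ctc1, at a difference of 0.13 where its own spread around its mean was 1.17, and then to Coq8a and Plxdc2. Ptgs2 was nearest to E2f1, at 0.47 of a spread of 2.70, and then to 4930430E12Rik and Rab7b. Ptges was nearest to Slain2 (0.11 of 0.82), Ptgds to Atp13a5 (0.49 of 4.46), Ltc4s to Siglece (0.34 of 1.99), Alox5 to Slc46a3 (0.17 of 0.79) and Alox5ap to Sat1 (0.16 of 0.53). Ptgds was followed by Hapln2, a gene of myelinating oligodendrocytes, and Siglech, a gene of homeostatic microglia. No member was among the 3 nearest genes of another member.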

How the data were processed

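Per the file headers and values, the deposited file holds raw counts per gene for 9 libraries of polyadenylated RNA. The submitters' processing notes name HISAT2 and the GRCm39 build; for the counting tool, the strand setting and the annotation, the entry is not given in the sources used here. No row lacked a gene name. Ptgr3 of the pathway lists is not analysed here.

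Groups came from the sample labels. In R 4.3.3, edgeR 4.0.16 scaled the counts by the trimmed mean of M values, kept 18093 of 56748 genes by filterByExpr and gave quasi-likelihood tests from a single model of the 3 group means. Fold changes are log2 ± SE. p-values were adjusted by Benjamini-Hochberg over the whole set of tested genes, and a gene was called below 0.05. Shares were compared by two-sided exact permutation tests, adjusted over 6 tests. On data simulated with 200 genes changed, 4-fold changes were called in 79% (injured against uninjured cortex), 70% (cultures against injured cortex) and 72% (cultures against uninjured cortex) of genes, and 2-fold changes in 11%, 10% and 11%. Of the simulated calls, 1.1%, 2.44% and 6.74% were of unchanged genes, in the same order, the last of them above the 5% aimed at. In the data, 50.1% and 60.5% of genes were called in cultures against injured and against uninjured cortex. That is far more than the 200 simulated, so the simulated rates may not carry over to those comparisons.

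The genes, lists and motifs were chosen with earlier results of these data known. All 10 genes are named in every comparison. From each pathway list the named genes are up to 4 with the smallest adjusted p, plus called genes that moved against the majority of the called genes of that list. Exon lengths come from GENCODE M21 and promoters from RefSeq, both on GRCm38, whereas the counts were made on GRCm39. Alternatives were upper-quartile factors, DESeq2 size factors, the DESeq2 1.42.0 Wald test, limma-voom (limma 3.58.1), no filter on low counts, the 2 groups alone, a replicate block, and libraries left out.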

Additional observations from a re-analysis of the deposited data

How the results depend on the processing

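The 10 genes were refitted under 7 settings, with each of the 9 libraries left out in turn, and, against uninjured cortex, without uninjured replicates 2 and 3, where the lone uninjured library is assumed to vary like the other groups. Calls and directions were kept in 156 of 170 refits for injured against uninjured cortex, in 156 of 160 for cultures against injured cortex and in 154 of 170 for cultures against uninjured cortex. The count of all genes called in injured against uninjured cortex was 2145, and it was 1369 with the 2 groups alone, 462 without uninjured replicates 2 and 3 (1 member called, Ptgs2) and 974 to 4102 with single libraries left out, at the low end without injured replicate 1 and at the high end without injured replicate 3. In cultures against uninjured cortex it was 10954, and 6997 without uninjured replicates 2 and 3. Some values that had not passed the test changed sign. Hpgds in injured against uninjured cortex was at -0.04 with DESeq2 size factors and with DESeq2's Wald test, -0.10 with upper-quartile factors, -0.02 with the replicate block, -0.45 without uninjured replicates 2 and 3, and at -0.42 to 0.36 with single libraries left out, below 0 without injured replicate 2 or uninjured replicate 2 or 3. With single libraries left out, Ptges2 was at -0.38 to 0.02 in injured against uninjured cortex, above 0 without uninjured replicate 1. In cultures against uninjured cortex it was at 0.00 with no filter on low counts and at -0.19 to 0.19 with single libraries left out, at or above 0 without culture replicate 1, injured replicate 2 or uninjured replicate 1. Tbxas1 in injured against uninjured cortex was at -0.13 to 0.37, and Alox5ap in cultures against injured cortex at -0.46 to 0.13, and both changed sign without injured replicate 2. The cause of these changes was not tested. Of calls against uninjured cortex, 75.8% were higher in injured cortex, beside 60.6% with the Wald test and 64.0% with upper-quartile factors, under which the median of all genes was -0.12 in place of 0.00. Deviations of same-numbered libraries had correlations of -0.088 to 0.353, and those of other-numbered libraries -0.317 to 0.267. These ranges overlapped, which does not decide whether the numbers pair libraries, and the main fit used no pairing. With the replicate block 9096, 11060 and 2203 genes were called in cultures against injured cortex, cultures against uninjured cortex and injured against uninjured cortex. Tbxas1 in cultures against uninjured cortex was then called too (adjusted p = 0.0436), 8 of 10 members. With the 2 groups alone it was 9 of 10, with Tbxas1 (adjusted p = 0.0432) and Hpgds (adjusted p = 0.0289). The table gives no gene lengths, so shares without division by length are the values reported. Depth limits Ptgs2 in uninjured cortex (12 to 77 counts), and Ptgds (36 to 76) and Ltc4s (31 to 65) in cultures.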
